A study of Mus musculus with 11 samples.

Results

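The Dlk1-Dio3 domain on mouse chromosome 12 is an imprinted region that carries a long array of miRNA genes. 5 of its miRNAs were followed in mouse feces: miR-127-3p, miR-381-3p, miR-434-5p, miR-136-3p and miR-3071-5p. They were taken by name from a table of 616 small RNA rows, and miR-3071-5p repeated the count of miR-136-3p in all 11 libraries, which left 4 distinct rows. The members were chosen from read counts of these libraries that were already known, so the levels and differences below, calls included, only describe these libraries.

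The feces came from C57BL/6 mice that drank dextran sulfate sodium (DSS), which damages the epithelium of the large bowel. There were 4 libraries from before DSS, 3 from the end of 5 days on 2.5% DSS, the acute phase, and 4 from day 12, after 7 days of recovery on plain water. Age and the number of animals were not given in the sources used here. No library from mice kept on water to day 5 or 12 was analysed, so phase and sampling day cannot be told apart. Nothing ties each library to a mouse of its own, so p-values measure only the spread between these libraries, which may be technical. The protocol speaks of 9 libraries, while 11 were deposited. The total was 11749 to 40835 miRNA counts per library. Recovery library 4 stood apart, with a median correlation of 0.542 with the other libraries over the tested rows, where the rest had 0.696 to 0.799, and with 42.0% of its counts in miR-21a-5p, where the rest had 15.7% to 37.1%. The members' day 12 means, fold changes and ratios are given with and without it. Feces hold RNA shed from many cell types, so fewer cells of a type and less RNA per cell cannot be told apart.

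The plus-strand miRNAs of this domain are made from the maternally inherited chromosome only, from long transcripts that include Meg3, Rian and Mirg. In the mouse they are best known from embryo, placenta, muscle and, in the adult, brain. Some lie opposite the coding sequence of Rtl1, a gene expressed from the paternal chromosome, and pair perfectly with its mRNA. A miRNA recognises most of its targets through its seed, bases 2 to 8, so the mature sequences are shown with the seed in capitals.

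The sequences, from RefSeq for build GRCm38.p6, show that no member shares its seed with another member or with any other mature miRNA of that table.
miR-127-3p: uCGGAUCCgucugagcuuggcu
miR-381-3p: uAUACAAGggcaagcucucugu
miR-434-5p: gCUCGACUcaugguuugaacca
miR-136-3p: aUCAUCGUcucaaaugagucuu
miR-3071-5p: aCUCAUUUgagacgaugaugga

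miR-136-3p and miR-3071-5p come from hairpins on opposite strands of the same stretch. The longest run they share in the same orientation is 4 bases. Against the reverse complement of miR-3071-5p, miR-136-3p shares a run of 19 bases, aucaucgucucaaaugagu. The hairpins are shown because their counted arms, in capitals, are the pair with equal counts.
Mir136: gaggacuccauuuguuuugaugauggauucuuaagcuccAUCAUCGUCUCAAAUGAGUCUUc
Mir3071: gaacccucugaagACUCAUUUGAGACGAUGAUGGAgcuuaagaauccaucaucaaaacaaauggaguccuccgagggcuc
How the authors' counting treated strand is not given in the sources used here. The 63 counts of each row therefore cannot be given to either miRNA, and below they stand under the name miR-136-3p and enter sums once.

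In GENCODE M21, on the same build, the hairpins of miR-127 (chromosome 12, 109592846 to 109592915, plus strand), miR-434 (109594506 to 109594599, plus strand) and miR-136 (109595327 to 109595388, plus strand) overlap an exon of Rtl1, which is on the minus strand. The hairpin of miR-3071 (109595318 to 109595397) is on the minus strand, within the same Rtl1 exon. Meg3, Rian and Mirg are on the plus strand, so the maternal origin given above does not cover it. The hairpin of miR-381 (109726822 to 109726896, plus strand) overlaps no other annotated gene. It belongs to the array that runs from miR-379 to miR-410.

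Read counts were divided by each library's total in the table and are given as CPM, where 3 counts are worth 73.5 to 255.3 CPM depending on the library. miR-127-3p, whose transcript lies opposite Rtl1 and directs the cleavage of Rtl1 mRNA in mouse, was the most abundant member, with 376 counts in all and rank 72 of 616 rows by mean CPM. The 4 libraries from before DSS stood at 1644, 3248, 1944 and 1005 CPM, from 50, 43, 40 and 28 counts. The day 5 libraries 1, 3 and 4 stood at 1231, 2489 and 2553 CPM, from 22, 31 and 30 counts. Recovery libraries 1 to 4 stood at 906, 2280, 1914 and 143 CPM, from 37, 43, 48 and 4 counts. The 3 ranges overlapped, and recovery library 4 was the lowest of all 11. In the order of the phases, the group means were 1960 ± 944 (SD, n = 4), 2091 ± 746 (SD, n = 3) and 1311 ± 971 CPM (SD, n = 4). Without that library the day 12 mean was 1700 ± 711 CPM (SD, n = 3).

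miR-381-3p, from the miR-379 to miR-410 array, had 173 counts. Before DSS its libraries stood at 888, 1964, 729 and 502 CPM, from 27, 26, 15 and 14 counts. On day 5 they stood at 448, 1606 and 1106 CPM, from 8, 20 and 13 counts. On day 12 they stood at 122, 901, 1077 and 35.9 CPM, from 5, 17, 27 and 1 counts. Here 2 of the 4 recovery libraries, 1 and 4, were below every library of the other phases, and the other pair lay inside the earlier range. The group means were 1021 ± 648, 1053 ± 581 and 534 ± 531 CPM (SD, n = 4, 3 and 4), and the day 12 mean without recovery library 4 was 700.2 ± 508 CPM (SD, n = 3).

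miR-434-5p, which also lies opposite Rtl1, had 118 counts. Before DSS it stood at 460.3, 831, 486 and 287 CPM, from 14, 11, 10 and 8 counts. On day 5 it stood at 168, 1365 and 596 CPM, from 3, 17 and 7 counts, so the acute libraries included a low and the highest value. On day 12 it stood at 245, 1219 and 598 CPM in libraries 1 to 3, from 10, 23 and 15 counts. Recovery library 4 held 0 of 27893 counts, which allows up to 107.6 CPM, and it was the lowest library. The groups overlapped throughout. The group means were 516 ± 228, 710 ± 607 and 516 ± 530 CPM (SD, n = 4, 3 and 4), and the day 12 mean was 687 ± 493 CPM (SD, n = 3) without recovery library 4.

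miR-136-3p, from a hairpin opposite Rtl1, had 63 counts and the lowest mean of the 4. Before DSS it stood at 329, 831, 194 and 71.8 CPM, from 10, 11, 4 and 2 counts. On day 5 it stood at 279.8, 321 and 340.5 CPM, from 5, 4 and 4 counts, the narrowest group of any member. On day 12 it stood at 171, 424 and 319 CPM in libraries 1 to 3, from 7, 8 and 8 counts, and at 0 in library 4. The group means were 356 ± 333, 314 ± 31.0 and 229 ± 184 CPM (SD, n = 4, 3 and 4), the last being 305 ± 127 CPM (SD, n = 3) without recovery library 4. With 2 to 11 counts in each library where it was seen, counting error alone was wide: the 10 counts of before-DSS library 1 had an exact 95% interval of 158 to 605 CPM.

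**Figure D1:**
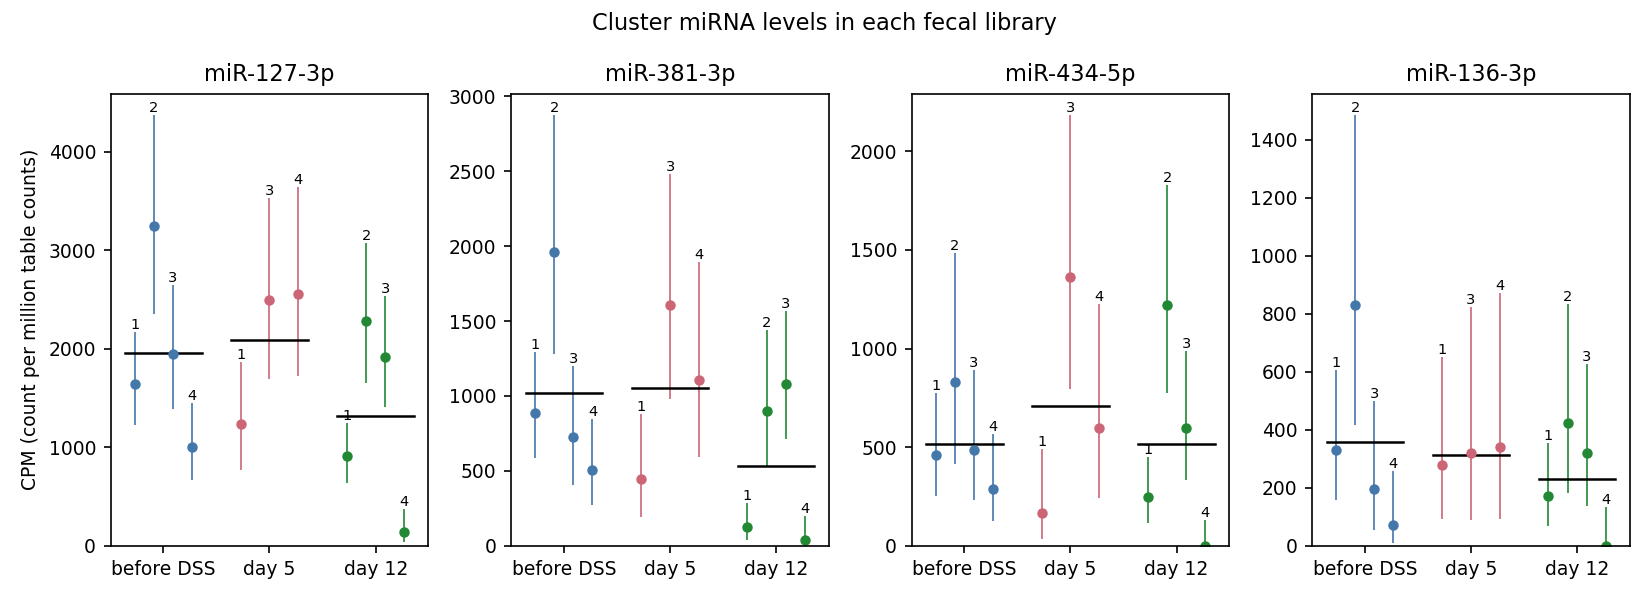
Level of each distinct member in CPM (y axis, linear from 0, own scale per panel) in each library (points, numbered as in the deposited columns) by phase. Bars are exact 95% binomial intervals, counting error only, and black lines are group means. Recovery library 4 stands at 143, 35.9, 0 and 0 CPM. Its bars at 0 counts reach 132.2 CPM, while reading 0 as 3 counts allows up to 107.6 CPM. Either limit is above before-DSS library 4 (71.8 CPM) for miR-136-3p.

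The order of the members by count was the same in each phase. Of the summed counts of the 4 rows, miR-127-3p made up 51.4% before DSS, 50.6% on day 5 and 52.2% on day 12. The share of miR-381-3p was 26.2%, 25.0% and 19.8%, that of miR-434-5p 13.7%, 16.5% and 19.0%, and that of miR-136-3p 8.63%, 7.93% and 9.09%. Single libraries varied more: outside recovery library 4, which had 5 counts of all members, the share of miR-381-3p ran from 8.47% to 28.6% and that of miR-434-5p from 7.89% to 25.3%. Summed over the 4 rows, the mean levels were 3853 ± 2129, 4168 ± 1865 and 2589 ± 2149 CPM (SD; n = 4, 3 and 4), and the last was 3393 ± 1748 CPM (SD, n = 3) without recovery library 4. The differences between these means were smaller than the spread between libraries. Scaled with the TMM factors of the fits below, the means were 3887, 3362 and 2377 CPM, with day 5 below the start. The order of day 5 and the start therefore rests on the scaling.

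The arms were unequally represented in the 4 hairpins with a row for each. For miR-127 the 3p arm held 376 counts and the 5p arm 24, a ratio of 15.7 (exact 95% interval 10.4 to 24.8). For miR-136 the 3p arm held 63 counts and the 5p arm 7, a ratio of 9.0 (4.12 to 23.3), with the doubt about strand given above. The same 63 counts stood against 16 of the 3p arm for miR-3071. For miR-434 the 5p arm led with 118 counts to 54, a ratio of 2.19 (1.57 to 3.07). The 5p count of that hairpin exceeded the 3p count in every phase, at 43 to 20 before DSS, 27 to 12 on day 5 and 48 to 22 on day 12. miR-381-5p is not analysed here. These intervals cover counting error only.

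Setting day 5 against the start asked whether the cluster miRNAs differed in acute colitis. 3 of the 4 distinct members passed edgeR's filter on low counts, and miR-136-3p did not. Scaled with TMM factors, which set the bulk of the rows level between libraries, miR-127-3p had a log2 fold change of -0.23 ± 0.55 (SE), with a 95% interval of -1.42 to 0.96. That of miR-381-3p was -0.28 ± 0.72 (-1.84 to 1.28) and that of miR-434-5p 0.07 ± 0.85 (-1.77 to 1.91). None of the 3 had an unadjusted p under 0.05 in edgeR's quasi-likelihood test, where 34 of all 137 tested rows did (24.8%). At an adjusted p under 0.05, edgeR called 0 of the 137 rows (0%). DESeq2, run on all 616 rows with its own filter, called 1, and neither called a member. With a replicate block on the column numbers, edgeR called 16 of the 137 rows, 5 higher and 11 lower, none of them a member. In the fit without the block, the median log2 fold change was -0.23 over the 3 members and 0.03 over all rows. With library totals alone the median of all rows moved by 0.31, and the values became 0.10 for miR-127-3p and 0.059 for miR-381-3p, so their sign on day 5 rests on the scaling. miR-434-5p stood at -0.77 without day 5 library 3, which held 17 of its 27 acute counts.

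Setting day 12 against the start asked whether the cluster miRNAs returned to the starting level in recovery. miR-381-3p had a log2 fold change of -1.10 ± 0.67 (SE), with a 95% interval of -2.55 to 0.35. miR-127-3p had -0.68 ± 0.50 (-1.78 to 0.41) and miR-434-5p -0.18 ± 0.77 (-1.84 to 1.49). No tested member was past the threshold with edgeR or DESeq2, while edgeR called 9 of 137 rows (6.57%), all higher. With a replicate block on the column numbers it called 15 rows, none of them a member. The block gave lower values: -1.39 for miR-381-3p, -0.80 for miR-127-3p and -0.50 for miR-434-5p. Their adjusted p in edgeR's test with the block were 0.17, 0.30 and 0.70. The groups overlapped for each member, while they did not for 13.9% of all tested rows. The median over the 3 members was -0.68, against -0.02 over all rows. Without recovery library 4 the values were -0.34 for miR-127-3p, -0.75 for miR-381-3p and 0.21 for miR-434-5p. The intervals hold both no difference and a fall by more than 1 on the log2 scale for all 3 members. For miR-136-3p the pooled ratio of CPM was 0.696 (exact 95% interval 0.381 to 1.26), and 0.926 (0.507 to 1.68) without recovery library 4. These intervals cover counting error in pooled counts only, not the spread between libraries, and are not comparable with those of the fit.

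The comparison of day 12 with day 5 shares its libraries with the others and asked what changed after DSS was withdrawn. The log2 fold changes were -0.45 ± 0.55 (SE) for miR-127-3p, -0.82 ± 0.73 for miR-381-3p and -0.25 ± 0.84 for miR-434-5p. Their 95% intervals were -1.64 to 0.74, -2.40 to 0.75 and -2.07 to 1.57. With the replicate block the values were -0.84, -1.29 and -0.74. No tested member was past the threshold in edgeR's test, which called 5 of 137 rows (3.65%), 4 higher (2.92%) and 1 lower (0.73%). Without recovery library 4 the values were -0.11, -0.47 and 0.14, and that of miR-434-5p was 0.59 without day 5 library 3. For miR-136-3p the pooled ratio of CPM was 0.661 (0.321 to 1.42), and 0.878 (0.427 to 1.89) without recovery library 4, again for counting error only.

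**Figure D2:**
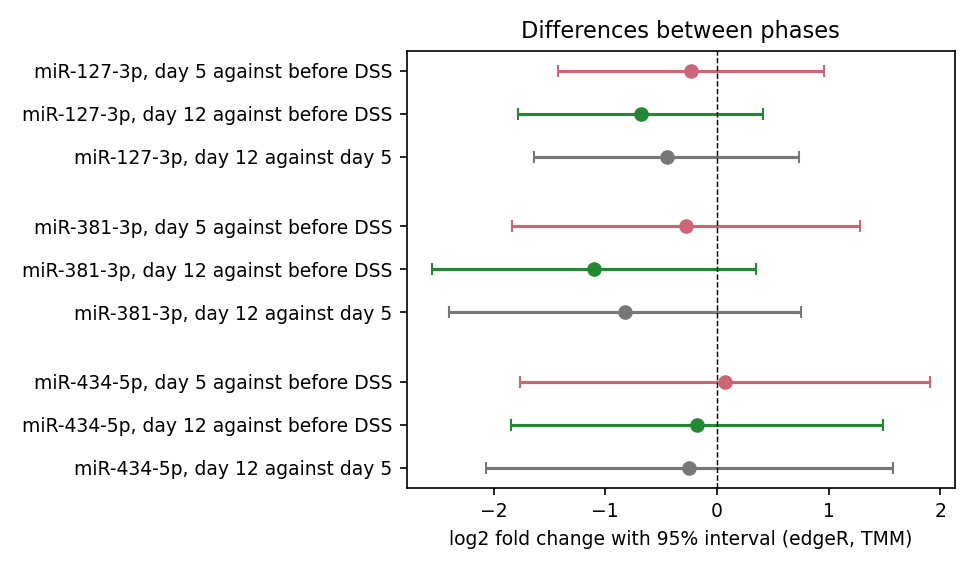
Log2 fold change (x axis) of the 3 members that passed the filter on low counts, for each pair of phases, from edgeR's fit of all 11 libraries with TMM factors. Points are fitted values and bars 95% intervals; each of the 9 intervals includes 0, and the lowest point is miR-381-3p on day 12 against before DSS at -1.10.

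The rest of the domain was sparsely covered. Of 58 hairpins listed for the domain, 41 had a row in the table, with 59 rows in all, 1 of them matched by position. With the repeated row left out, 58 rows held 1454 counts, 0.589% of all counts, and the 4 members held 50.2% of these. 31 of the 59 rows had at most 5 counts over the 11 libraries. Membership did not follow abundance: miR-379-5p with 140 counts, miR-411-5p with 85, miR-541-5p with 75 and miR-300-3p with 64 each had more counts than miR-136-3p. miR-379-5p and miR-411-5p, near the start of the miR-379 to miR-410 array, were the other cluster rows that passed the filter. miR-379-5p had log2 fold changes against the start of -0.58 ± 0.52 (SE) in the acute phase and -0.66 ± 0.47 in recovery, and miR-411-5p had -0.59 ± 0.68 and -1.03 ± 0.61. With them, 0 of 5 cluster rows had an edgeR unadjusted p under 0.05 in any comparison, where 24.8%, 16.8% and 19% of the 137 rows did on day 5 against before DSS, day 12 against before DSS and day 12 against day 5.

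Rows below the filter included the arms miR-434-3p (54 counts), miR-127-5p (24) and miR-3071-3p (16), and miR-370-3p (34), miR-409-3p (26) and miR-382-3p (21). miR-300-3p is a close relative of miR-381-3p and could share reads with it if mismatches were allowed. It is shown to compare the pair.
miR-381-3p: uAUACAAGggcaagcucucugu
miR-300-3p: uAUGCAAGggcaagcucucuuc
From base 1 at the 5′ end, the differences from miR-381-3p are A4G, G21U and U22C, so the first falls in the seed. The count of miR-381-3p was 2.48 times that of miR-300-3p before DSS (82 to 33; exact 95% interval 1.64 to 3.84) and 2.0 times on day 12 (50 to 25; 1.21 to 3.37), or 1.96 times without recovery library 4. On day 5 it was 6.83 times (41 to 6; 2.88 to 19.7). It was 11 times without day 5 library 1 (33 to 3; 3.45 to 56.1) and 7 times without library 3 (21 to 3; 2.09 to 36.7). Without day 5 library 4 it was 4.67 times (28 to 6), with an interval of 1.90 to 13.8 that overlaps the one before DSS. The intervals cover counting error only.

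In sum the cluster was low in recovery library 4, with exceptions among its rows. Of 13 distinct cluster rows with at least 20 counts, 8 had 0 counts in it (61.5%), against 17.0% of all 224 rows with at least 20 counts. The sets are not matched for abundance, and a row with few counts is more often at 0. The 13 rows held 21 to 376 counts, while the 224 include miR-192-5p with 18482. With a count of 0 read as 3 counts, 5 of the 13 were lower in recovery library 4 than in each of the other 10 libraries (38.5%), against 22.3% of the 224. These 5 were the members miR-127-3p, miR-381-3p and miR-434-5p, then miR-434-3p, the other arm of a member's hairpin, and miR-411-5p. The members are part of the 13 and were chosen with these counts known, so both shares only describe these libraries. miR-379-5p and miR-541-5p were not lowest in recovery library 4. miR-379-5p held 9 counts there, or 323 CPM, within the range of 245 to 1057 CPM in the other libraries. miR-541-5p held 7 counts, or 251 CPM, within 122 to 604 CPM. The 54 cluster rows other than the members summed to 860 CPM in recovery library 4 and to 1567 to 5589 CPM elsewhere. The 10 rows from hairpins opposite Rtl1 summed to 179 CPM in recovery library 4 and to 1469 to 5589 CPM elsewhere. They include the members miR-127-3p, miR-434-5p and miR-136-3p, the last with the doubt about strand. This sum thus largely restates rows chosen with these counts known. Of its 5 counts in recovery library 4, 4 were of miR-127-3p. The 37 rows from miR-379 to miR-410, the member miR-381-3p among them, summed to 789 CPM, against 1396 to 6118 CPM. Of their 22 counts in recovery library 4, 16 came from miR-379-5p and miR-541-5p.

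**Figure D3:**
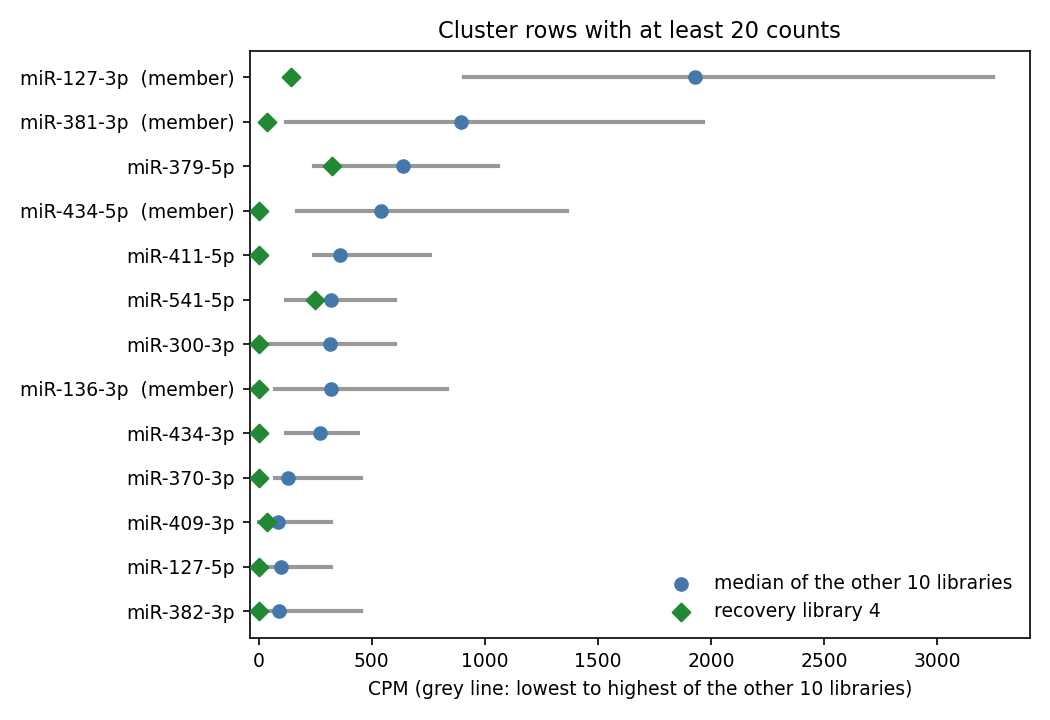
CPM (x axis) of the 13 distinct cluster rows with at least 20 counts. Grey lines run from the lowest to the highest of the 10 libraries other than recovery library 4, blue points are their medians and green diamonds are recovery library 4; the diamonds of miR-379-5p and miR-541-5p lie on the grey lines at 323 and 251 CPM, while those of miR-127-3p, miR-381-3p and miR-434-5p lie to the left of theirs. A diamond at 0 allows up to 107.6 CPM.

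Marker lists were summed in the same libraries. The feces themselves carried the markers of intestinal epithelium (miR-192-5p, miR-194-5p, miR-215-5p and miR-200b-3p) in each library, at a summed level of 47696 to 190240 CPM. The neuronal markers (miR-9-5p, miR-124-3p, miR-128-3p and miR-129-5p, all 4 found) summed to 13168 to 53323 CPM before DSS, 25291 to 43038 on day 5 and 12293 to 38594 in recovery libraries 1 to 3, and to 2330 CPM in recovery library 4. The smooth muscle and stroma markers summed to 5310 to 11480, 7722 to 12767 and 3282 to 9330 CPM in the same groups, and to 1577 CPM in recovery library 4, all of it miR-143-3p. There miR-199a-3p was at 0, as in no other library, and so were miR-145a-5p and miR-214-3p, which were also at 0 in 4 and 5 of the other 10 libraries. The striated muscle markers summed to 529 to 1381, 392 to 803 and 343 to 1113 CPM, and to 251 CPM in recovery library 4. Of these, miR-1a-3p was at 0 there and in no other library, miR-133a-3p (35.9 CPM) and miR-206-3p (143 CPM) lay inside their ranges, and miR-133b-3p (71.7 CPM) was at 0 in the other 10. In recovery library 4 the epithelial markers stood at 166422 CPM. The other libraries had 99773 to 190240 before DSS, 47696 to 155998 on day 5 and 90735 to 139366 in recovery libraries 1 to 3. The erythroid markers, miR-451a and miR-486a-5p, stood at 24558 CPM there. That was inside the day 5 range (21921 to 37705), but above before DSS (6961 to 16616) and recovery libraries 1 to 3 (4090 to 13466). Within the epithelial list, miR-200b-3p (52092 CPM) and miR-194-5p (31191 CPM) were above the other libraries, whose highest values were 24925 and 28257 CPM. The leukocyte markers, miR-223-3p and miR-142a-3p, were at 0 in 3 of the 4 libraries before DSS and summed to 321 to 851 CPM on day 5, to 3943, 4506 and 5305 CPM in recovery libraries 1 to 3 and to 7314 CPM in recovery library 4. The liver marker miR-122-5p stood at 860 CPM there, inside its range. The part of any of these in the member levels was not tested.

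By Spearman correlation of log2(TMM CPM + 1) over the 11 libraries, the rows most like miR-127-3p were miR-99a-5p (0.88), miR-128-3p (0.84), a miRNA of neurons, and miR-143-3p (0.82), a miRNA of smooth muscle. The rows most like miR-381-3p were miR-9-5p, a miRNA of neural tissue, and miR-9b-3p (0.91 each, from nearly equal counts), then miR-128-3p (0.86). Those most like miR-434-5p were miR-128-3p (0.87), miR-381-3p (0.86) and miR-9-5p (0.84). Between members the values were 0.81 for miR-127-3p with miR-381-3p and 0.70 for miR-127-3p with miR-434-5p, and 0.75 and 0.60 without recovery library 4. Without that library these same nearest rows had 0.76 to 0.88, and nearest rows were not sought anew. These values describe sparse counts in libraries that share their totals, and carry no test.

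**Figure D4:**
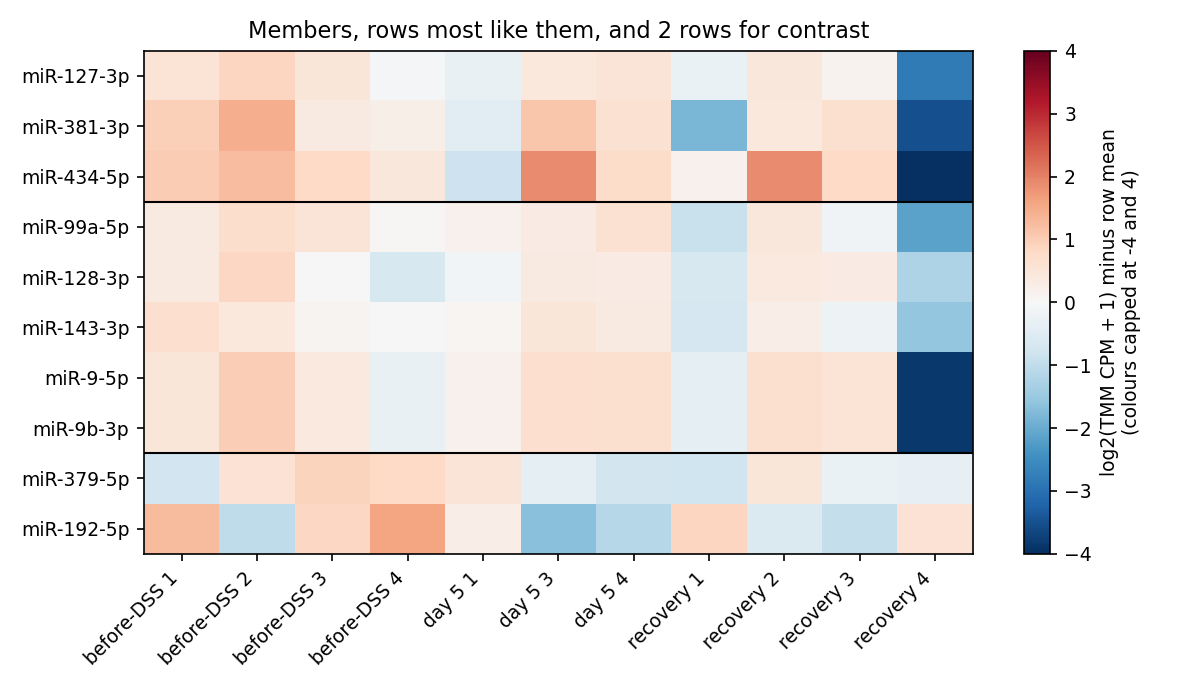
Level of each row in each library as log2(TMM CPM + 1) minus the row's mean (colour, capped at -4 and 4). The top block holds the 3 tested members and the middle block the rows most like them. The bottom block holds miR-379-5p and miR-192-5p, 1 of the 4 epithelial markers, picked for contrast. Recovery library 4 is the bluest column in the top and middle blocks and stands at -0.33 and 0.58 for the bottom rows. The other tested cluster row, miR-411-5p, is not drawn and was at 0 in recovery library 4.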

How the data were processed

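Per the labels' protocols, RNA was extracted from feces with a mirVana kit, made into TruSeq small RNA libraries and sequenced on an Illumina HiSeq, and ACGT101-miR removed adapter dimers, junk, low complexity reads, other RNA classes and repeats. The aligner, miRNA release, build, allowed mismatches and use of strand were not given in the sources used here. The authors deposited a raw read count for each row and library, which was used throughout. The other 11 deposited columns, of normalized values, were not used. Totals are those of the table, not sequencing depth.

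Day 12 columns matched titles by number. Day 5 columns (numbers 1, 3, 4) and before-DSS columns, which are named D1 and not day 0, were assigned to their group only, the latter as the remaining group of 4. Counts were tested with edgeR 4.0.16 (R 4.3.3; quasi-likelihood F-test, TMM, default filter on low counts, all 11 libraries on group, Benjamini-Hochberg over 137 rows, threshold 0.05), checked on simulated data. SE was taken from the F statistic. Intervals used scipy 1.17.1. A count of 0 was read as allowing 3 counts. Alternatives were RLE, library totals, no filter, at least 10 CPM in 3 libraries, DESeq2 1.42.0, only the groups compared, a replicate block and each library left out. Same-numbered columns had deviations from group means that correlated from -0.12 to 0.50 over 10 pairs. Over the 4 pairs of before DSS and day 12 they ran from 0.24 to 0.50, every pair over 0.1. Columns of these phases with unlike numbers ran from -0.48 to 0.28, so values over 0.1 were not limited to equal numbers. Same-numbered pairs with day 5 ran from -0.12 to 0.20. Whether the numbers mark a shared source is not known, so the block is given as an alternative. The fit without the block is the main one, and the members' day 12 fold changes with the block are given beside it. The names follow a rule: the members, cluster rows, other arms, equal rows and the 3 rows most like each tested member. Members, lists and tests were chosen with earlier results of these data known. Of the 544 miRNA names, 461 had a RefSeq sequence, all 5 members among them.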

Additional observations from a re-analysis of the deposited data

How the results depend on the processing

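The 9 log2 fold changes of the members took 129 values under the alternatives, none past the threshold; 118 kept their sign and 11 did not. Changes of sign on day 5 against before DSS included 0.10 for miR-127-3p and 0.059 for miR-381-3p with library totals and 0.034 for miR-127-3p with the replicate block. The others came with 1 library left out. miR-381-3p was at 0.040 without before-DSS library 2 and 0.051 without day 5 library 1. miR-434-5p was at -0.053 without before-DSS library 4 and -0.77 without day 5 library 3. With each library left out, the day 5 value of miR-381-3p ran from -0.66 to 0.051 and that of miR-434-5p from -0.77 to 0.53. On day 12 miR-434-5p ran from -0.76 to 0.21 against before DSS and from -0.87 to 0.59 against day 5. Rows called on day 5 against before DSS numbered 1 with library totals or DESeq2, 15 without a filter, 5 with at least 10 CPM and 16 with the replicate block. On day 12 against before DSS they numbered 17 without a filter, 15 with the replicate block and 5 to 14 with each library left out. On day 12 against day 5 they numbered 2 with library totals or only the groups compared, 21 without a filter, 10 with at least 10 CPM, 13 with DESeq2, 14 with the replicate block and 1 to 7 with each library left out. The block changed no member's call. The cause of these shifts was not tested. Without a filter, with at least 10 CPM and with DESeq2, the rows tested were not those of the main fit, so these counts have unlike totals. The depth limits the members: 3 counts correspond to 73.5 to 255.3 CPM per library.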

Other observations

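miR-136-3p and miR-3071-5p were not the only rows from opposite strands with equal counts. Among rows with a RefSeq sequence, 18 pairs shared a run of at least 15 bases between a miRNA and the reverse complement of the other, and 5 of these had the same count in all 11 libraries. 3 pairs with at least 20 counts were equal in every library, and all 3 were such reverse complements: miR-136-3p with miR-3071-5p (63 counts each), miR-142a-3p with miR-142b (111 each) and miR-374b-5p with miR-374c-3p (80 each). Near-equal pairs of the same kind were miR-9-5p with miR-9b-3p (4955 and 4946 counts), miR-24-3p with miR-3074-5p (1376 and 1375) and miR-129-5p with miR-129b-3p (220 and 219). The other arms of the first pair, miR-136-5p and miR-3071-3p, share a run of 20 bases in the same way but held 7 and 16 counts. miR-126a-3p and miR-126b-5p share 19 bases and held 504 counts and 1 count.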
